A study of Mus musculus with 6 samples.

Results

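The NF-kB subunits and their inhibitors were followed in mouse dendritic cells cultured with or without DB2313. They are encoded by 10 genes, found by their symbols among the 54532 genes of the count table. This family was chosen for description with earlier results of these data known. The table held 3 control libraries, from cells whose treatment is labelled only as control, and 3 libraries from cells treated with DB2313. DB2313 is a small molecule that the study used as an inhibitor of Spi1 (PU.1), a transcription factor of macrophages and dendritic cells. All 6 libraries came from dendritic cells kept in culture medium with serum, per the labels. In the table, the control columns carry the usual short form of bone marrow-derived dendritic cell and the others the name of Spi1; the directions given here hold if the Spi1 columns are the DB2313 libraries. Macrophages, not dendritic cells, are the cells described in the study itself. Dose, time of treatment, strain and age of the mice are not given in the labels. The labels do not say whether the libraries came from separate cultures, so the p-values below measure the spread between these libraries, which may be technical.

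NF-kB factors are dimers of Rel family proteins. In resting cells the dimers are held in the cytoplasm by IkB proteins. Signals from Toll-like or cytokine receptors activate the IKK kinases, which mark IkB for degradation, so that the dimers enter the nucleus. A slower branch, driven by the kinase NIK, processes the product of Nfkb2 and releases dimers with RelB. In dendritic cells, c-Rel and RelB are known for their part in maturation and in the expression of cytokines such as interleukin-12.

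Total counts ranged from 16146743 to 19764677 per library. After removal of genes with low counts, 14174 were tested, and all 10 genes were among them. Read counts were scaled to a common library size as CPM (counts per 1 M reads). A gene was called changed when its Benjamini-Hochberg adjusted p in edgeR's quasi-likelihood test was under 0.05 over all genes tested. By this measure 10.6% of all genes were called, 4.66% higher and 5.94% lower with DB2313. The share of mitochondrial reads was 2.06% to 2.41% in control and 1.46% to 1.57% with DB2313, without overlap, and its part in the results was not tested. Within groups, the libraries farthest apart were DB2313 replicates 1 and 3, with a chi-square per degree of freedom of 17.7 against 4.77 to 8.60 for the other pairs. Of 12 dendritic cell markers, 10 exceeded 10 CPM in every library, as did 10 of 10 macrophage markers, 10 of 10 neutrophil markers and 8 of 8 mast cell and basophil markers, so the cultures held transcripts of several myeloid cell types. No marker of these 4 lists was at 0 in every library. Spi1 itself did not pass (adjusted p 0.206), with means of 366 ± 18.4 CPM in the control and 329 ± 20.1 CPM in the DB2313 libraries (SD, n = 3).

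With DB2313, 3 of the 5 subunit genes (Rel, Relb and Nfkb2) and 1 inhibitor gene (Nfkbib) were lower. Relb decreased by 23.2% and Rel decreased by 22.1%. Nfkbib, the least changed of the 4, decreased by 19.1%, and Nfkb2 lay between these. These 4 were 40% of the 10 genes, beside 5.94% of all tested genes called lower. Both figures moved when single libraries were left out. Without control replicate 2 or 3, 2 of the 10 genes were lower, and over all genes between 411 (without DB2313 replicate 2) and 1311 (without DB2313 replicate 3) were, against 842. None of the 10 was called higher by edgeR, DESeq2 or limma-voom. At an unadjusted p under 0.05 there were 6, all lower, the other two being Rela and Tnfaip3, beside 23.3% of all tested genes. The median log2 fold change of the 10 genes was -0.20, beside 8.2e-04 over all genes tested. In CPM, the groups did not overlap for 7 of the 10 genes, beside 27.4% of all tested genes. Of these, 6 were on the lower side, beside 14.5% of all genes, and Nfkb1 was on the higher side, beside 12.9%. In level per length, Nfkbiz lay at percentile 34.2 of the tested genes and the others at percentiles 76.9 to 98.2. The shares over all genes thus cover many genes at lower levels, and shares among genes of like level were not computed. In bulk RNA, fewer cells of a type and less RNA per cell cannot be told apart.

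**Figure D1:**
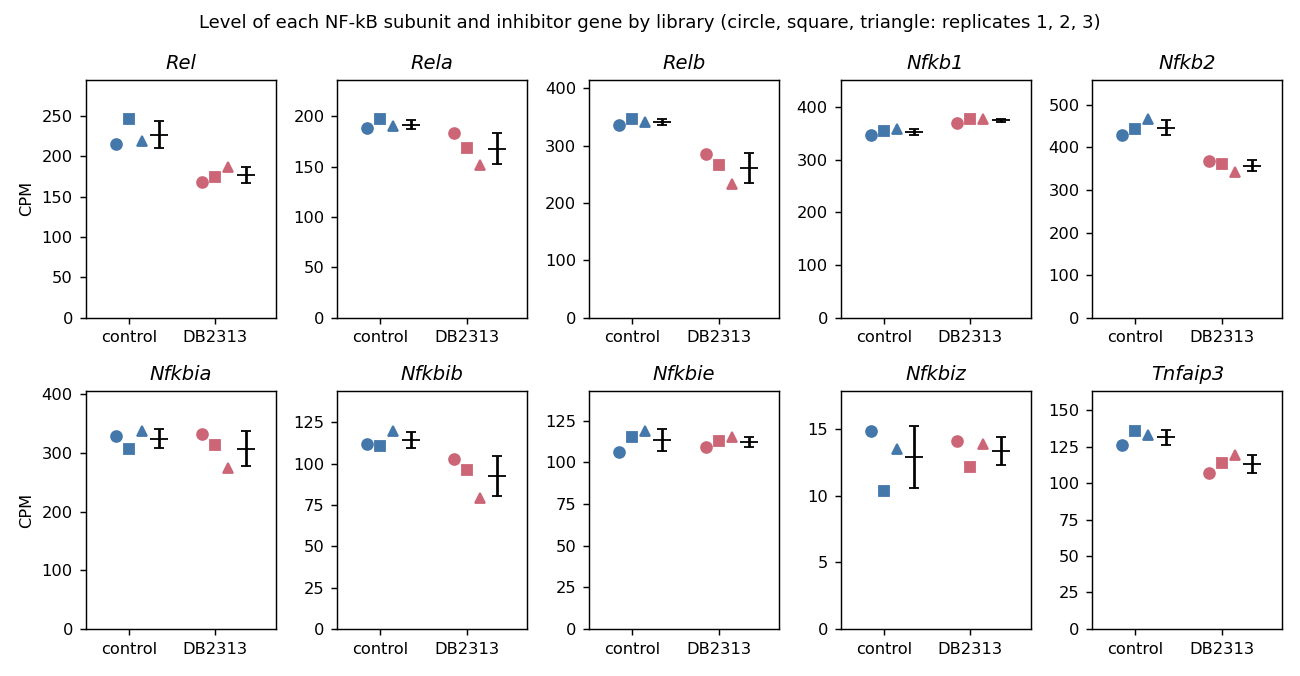
CPM of each of the 10 genes in each library, on axes that start at 0; circles, squares and triangles are replicates 1, 2 and 3, and the black bar with whiskers is the group mean ± SD (n = 3). The DB2313 libraries sit below all control libraries for Rel, Rela, Relb, Nfkb2, Nfkbib and Tnfaip3, and above them for Nfkb1.

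Rel encodes c-Rel, a subunit with a transactivation domain (ENSMUSG00000020275, chromosome 11, 23736847 to 23770970, minus strand, GRCm38). It was at 216, 246 and 219 CPM in control replicates 1 to 3 and at 168, 175 and 187 CPM with DB2313. All treated libraries were below all controls, and control replicate 2 was the highest. This was a log2 fold change of -0.36 ± 0.08 (SE, adjusted p 0.0057). Without control replicate 2 the log2 fold change was -0.29 and the adjusted p 0.0565.

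Relb encodes RelB, the partner of p52 in the branch driven by NIK (ENSMUSG00000002983, chromosome 7, 19606217 to 19629438, minus strand). It fell from 336, 346 and 341 CPM in control to 285, 267 and 233 CPM with DB2313. The control libraries lay close together, whereas DB2313 replicate 3 was well under the other treated libraries. On the log2 scale the change was -0.38 ± 0.08 (SE, adjusted p 0.00449), the largest decrease among the 10 genes, and it passed in all 16 alternative analyses, with an adjusted p of at most 0.0392.

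Nfkb2 encodes p100, the precursor of p52, which also acts as an inhibitor until it is processed (ENSMUSG00000025225, chromosome 19, 46304737 to 46312090, plus strand). Control libraries were at 430, 444 and 466 CPM and DB2313 libraries at 367, 362 and 343 CPM, without overlap. Its log2 fold change was -0.32 ± 0.07 (SE, adjusted p 0.00519). Without control replicate 3, the highest library, it was -0.29 with an adjusted p of 0.0563. These bounds differ from those of GENCODE M21. By the bounds of the count table, its end overlaps Psd on the other strand, from 46312087 to 46312090. Since the strandedness of the counts was not stated, reads there cannot be told apart, but Psd had 80.7 to 108 CPM, under Nfkb2 in every library.

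Rela encodes RelA (p65), the main transactivating subunit of the classical pathway (ENSMUSG00000024927, chromosome 19, 5637483 to 5648130, plus strand). It was at 188, 197 and 190 CPM in control and at 183, 169 and 152 CPM with DB2313. The groups did not overlap, but DB2313 replicate 1 was near the controls. A log2 fold change of -0.19 ± 0.08 (SE) did not pass (adjusted p 0.136). It passed when DB2313 replicate 1 was left out (-0.26, adjusted p 0.0257) and with an offset for gene length (-0.22, adjusted p 0.0259).

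Nfkb1 encodes p105, the precursor of p50 (ENSMUSG00000028163, chromosome 3, 135584655 to 135691547, minus strand). It was at 347, 355 and 358 CPM in control and at 371, 377 and 377 CPM with DB2313. All treated libraries were above all controls by a narrow margin. The log2 fold change of 0.09 ± 0.06 (SE) did not pass (adjusted p 0.464), and its 95% interval ran from -0.05 to 0.22. This interval did not overlap with those of Rel (-0.52 to -0.20), Relb (-0.54 to -0.22) or Nfkb2 (-0.46 to -0.18). The difference between genes was not tested. With an offset for gene length, the log2 fold change of Nfkb1 was 0.175 ± 0.063 (SE, adjusted p 0.0794).

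**Figure D2:**
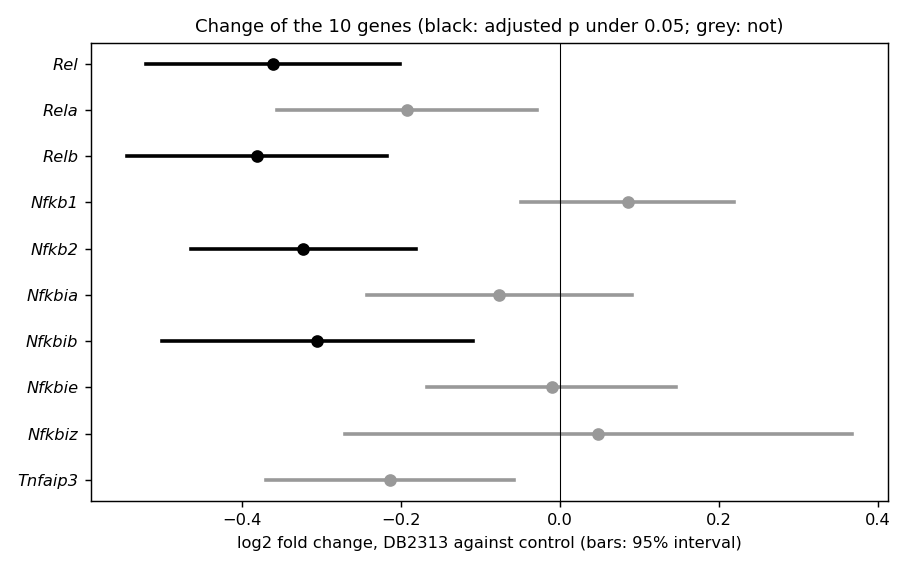
Log2 fold change of DB2313 against control for the 10 genes, with the 95% interval of edgeR's fit as bars; black marks an adjusted p under 0.05 over all genes tested. Rel, Relb, Nfkb2 and Nfkbib lie under 0 with log2 fold changes from -0.38 to -0.31, and the interval of Nfkb1 spans 0.

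Levels of the subunits were set beside each other after division by gene length (CPM per kb). The deposited lengths were 12061 bp (Nfkb1), 7466 bp (Rel), 3885 bp (Relb), 3289 bp (Nfkb2) and 2716 bp (Rela). The order below rests on these lengths, and a long one lowers the level per kb. In CPM alone, control means were 447 for Nfkb2, 353 for Nfkb1, 341 for Relb, 227 for Rel and 192 for Rela. With DB2313 they were 357, 375, 262, 177 and 168 CPM. In control the order of the subunits was Nfkb2 (136 ± 5.47 CPM per kb), Relb (87.8 ± 1.28), Rela (70.7 ± 1.75), Rel (30.4 ± 2.22) and Nfkb1 (29.3 ± 0.493, SD, n = 3). Only Rel and Nfkb1 overlapped there. With DB2313 the order was Nfkb2 (109 ± 3.80 CPM per kb), Relb (67.4 ± 6.74), Rela (61.9 ± 5.67), Nfkb1 (31.1 ± 0.303) and Rel (23.7 ± 1.31). In that group Relb and Rela overlapped, whereas Nfkb1 and Rel no longer did. The summed level of the 5 subunits was 344, 359 and 358 CPM per kb in control and 306, 296 and 277 CPM per kb with DB2313.

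The share of Nfkb1 in that sum was 8.35%, 8.19% and 8.28% in the control libraries and 10.1%, 10.6% and 11.3% in the DB2313 libraries. Relb made up 24.5% to 25.1% in control and 21.7% to 24.0% with DB2313. The share of Rela was 19.6% to 20.2% and then 20.3% to 22.0%, and those of Rel and Nfkb2 overlapped between the groups. The ratio of Nfkb1 to Nfkb2, the genes of both precursors, was 0.210 to 0.220 in control and 0.275 to 0.299 with DB2313. That of Nfkb2 to Relb, which form the dimer of the NIK branch, was 1.51 to 1.62 and 1.52 to 1.74, with overlap. These shares and ratios describe transcripts, rest on the deposited gene lengths and were not tested.

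**Figure D3:**
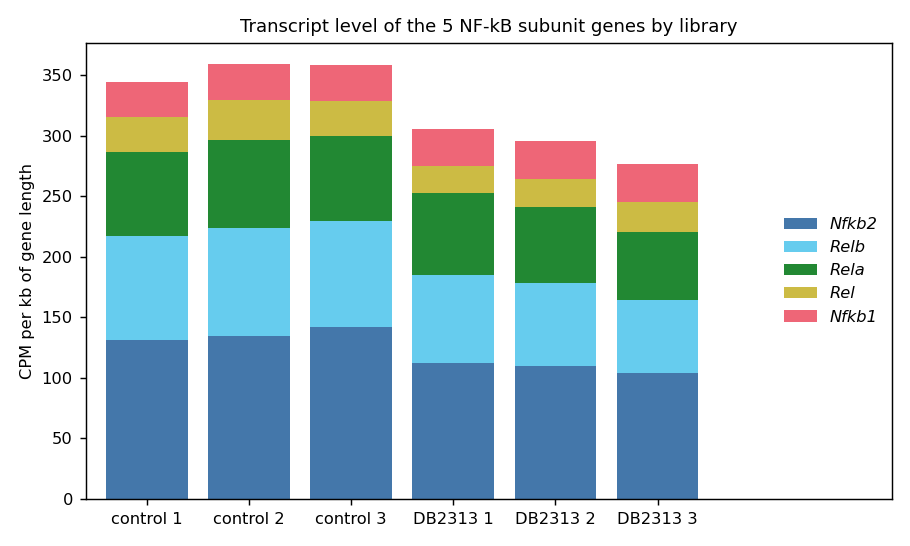
Stacked level of the 5 subunit genes in CPM per kb of gene length, one bar per library. The bars of the DB2313 libraries (277 to 306 CPM per kb) are shorter than those of the control libraries (344 to 359), while the top segment, Nfkb1, is not.

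Nfkbia encodes IkB-alpha, the inhibitor that NF-kB itself induces and that is rebuilt after each signal (ENSMUSG00000021025, chromosome 12, 55489410 to 55492647, minus strand). It had the highest level per length of the 10 genes, 201 ± 9.95 CPM per kb in control and 191 ± 18.2 CPM per kb with DB2313. In CPM it was at 329, 306 and 338 in control and at 333, 314 and 275 with DB2313. The groups overlapped, and DB2313 replicate 3 was the lowest library. Its log2 fold change was -0.08 ± 0.08 (SE, adjusted p 0.617), with a 95% interval from -0.24 to 0.09.

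Nfkbib encodes IkB-beta, a more slowly degraded inhibitor (ENSMUSG00000030595, chromosome 7, 28758251 to 28767512, minus strand). Control libraries were at 112, 111 and 120 CPM and DB2313 libraries at 103, 96.1 and 79.3 CPM, without overlap. DB2313 replicate 3 was the lowest by far. A log2 fold change of -0.31 ± 0.09 (SE) had an adjusted p of 0.0448, the call closest to the threshold. It was lost in 7 of the 16 alternatives, among them the omission of any library other than DB2313 replicate 1. Without DB2313 replicate 3 the log2 fold change was -0.20 and the adjusted p 0.0675, and without control replicate 3 it was -0.27 (adjusted p 0.193). Its start overlaps Sirt2 on the other strand, from 28766735 to 28767512, and its end overlaps Ccer2, which had at most 3 counts. Sirt2 was at 127 to 135 CPM in control and 123 to 125 CPM with DB2313, and reads of the stretch it shares with Nfkbib cannot be told apart.

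Nfkbie encodes IkB-epsilon, an inhibitor that mainly binds dimers of RelA and c-Rel (ENSMUSG00000023947, chromosome 17, 45555703 to 45563169, plus strand). It was at 106, 115 and 119 CPM in control and at 109, 113 and 115 CPM with DB2313, all within the control range. The log2 fold change was -0.01 ± 0.07 (SE, adjusted p 0.954), with a 95% interval from -0.17 to 0.15, and its sign turned under library totals. The ratio of Nfkbie to Nfkbib, per length, was 0.678 to 0.733 in control and 0.758 to 1.04 with DB2313. Summed, the 3 cytoplasmic inhibitors were at 279 to 304 CPM per kb in control and 246 to 290 CPM per kb with DB2313. The groups overlapped in this sum, whereas the sum of the subunits was lower in every DB2313 library than in any control. Divided by the sum of the subunits, the inhibitors gave a ratio of 0.778 to 0.849 in control and of 0.887 to 0.949 with DB2313. Nfkb2, whose product also acts as an inhibitor, was counted with the subunits. These ratios rest on the deposited gene lengths and were not tested.

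Nfkbiz encodes IkB-zeta, a nuclear protein that helps to switch on secondary response genes such as Il6 (ENSMUSG00000035356, chromosome 16, 55811375 to 55838899, minus strand). It was the lowest of the 10 genes, at 14.9, 10.4 and 13.5 CPM in control and at 14.1, 12.2 and 13.9 CPM with DB2313, from 166 to 243 reads per library. The treated values lay within the control range. Its log2 fold change was 0.05 ± 0.15 (SE, adjusted p 0.894), and the 95% interval from -0.27 to 0.37 was the widest of the 10. These libraries do not exclude a change of a size within this interval.

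Tnfaip3 encodes A20, a ubiquitin-editing enzyme that ends NF-kB signals (ENSMUSG00000019850, chromosome 10, 19000910 to 19015657, minus strand). It was at 126, 136 and 133 CPM in control and at 107, 114 and 119 CPM with DB2313. All treated libraries were below all controls, but the log2 fold change of -0.21 ± 0.07 (SE) did not pass (adjusted p 0.0788). Without DB2313 replicate 3 it was -0.25 with an adjusted p of 0.023.

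The DB2313 libraries spread around their mean in opposite ways for different genes. For Rela, Relb, Nfkb2, Nfkbia and Nfkbib, replicate 1 was the highest treated library and replicate 3 the lowest. For Rel, Nfkbie and Tnfaip3, replicate 1 was the lowest and replicate 3 the highest. Nfkb1 barely moved, with deviations from -0.02 to 0.01 on the log2 scale. The first set had gene lengths of 1610 to 3885 bp and a GC content of 52.9% to 59.4%. Rel and Tnfaip3 had lengths of 7466 and 7226 bp and a GC content of 42.5% and 47.1%, and Nfkbie had 3045 bp and 55.4%. Nfkb1, the longest of the 10 genes, had 12061 bp and 44.9%. Nfkbiz, which was lowest in replicate 2, had 5018 bp and 50.1%. The part of gene length and GC content in this spread was not tested. The medians of all tested genes were 3988 bp and 49.6%. With an offset for GC content, chosen after the data were seen, the same 4 genes were called lower. With an offset for gene length, Rela joined them, and the log2 fold change of Nfkb1 was 0.175 (adjusted p 0.0794).

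**Figure D4:**
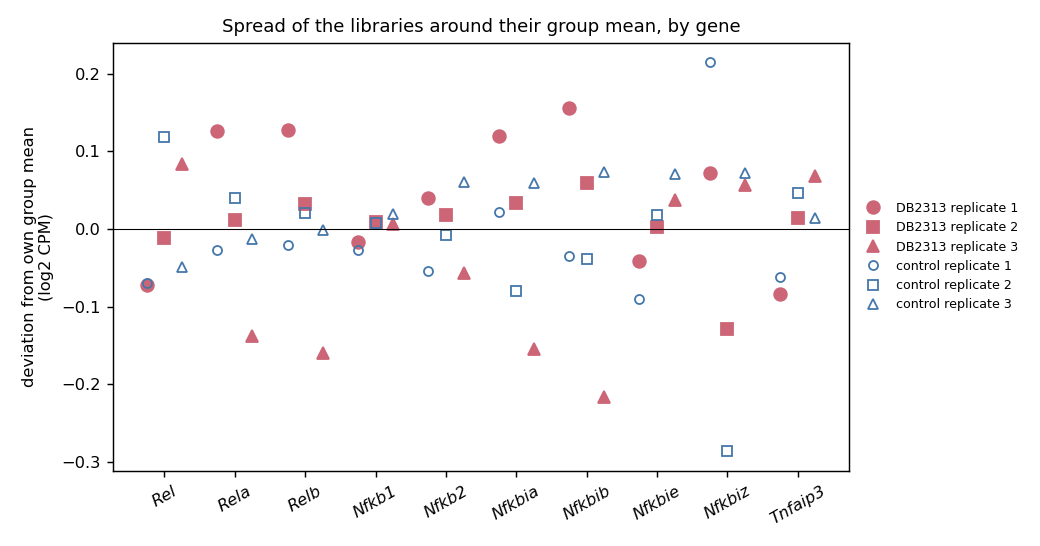
Deviation of each library from the mean of its own group, in log2 CPM, for each of the 10 genes; filled symbols are DB2313 and open symbols control libraries. DB2313 replicate 3 (filled triangles) is the lowest treated library for 5 genes, down to -0.22 for Nfkbib, and the highest for Rel, Nfkbie and Tnfaip3.

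Markers of the cell types in the cultures moved as well. The summed level of the 12 dendritic cell markers was 10700 to 11000 CPM in control and 9000 to 10600 CPM with DB2313. Most of it was Cd74 (6470 to 6640 and 5390 to 6610 CPM), which was not called (adjusted p 0.326). Of the 12, 4 were lower and 1 higher, Clec9a, at 0.615 to 4.33 CPM over all libraries. For the 10 macrophage markers the sums were 10000 to 11400 and 8960 to 9840 CPM, with 5 lower and 1 higher. Most was Lyz2 (8280 to 9550 and 7560 to 8250 CPM), also not called (adjusted p 0.218). Over all tested genes, 5.94% were called lower and 4.66% higher. The 10 neutrophil markers summed to 4480 to 5040 CPM in control and 4550 to 5990 CPM with DB2313 (3 higher), the 8 mast cell and basophil markers to 2520 to 2720 and 2570 to 3080 CPM (2 higher), and the 8 T cell markers to 168 to 200 and 171 to 253 CPM (none called by edgeR). The 5 B cell markers summed to 33.4 to 39.0 CPM in control and 40.3 to 46.5 CPM with DB2313, without overlap. Of these, 2 passed the filter on low counts and none was called by edgeR (both had an unadjusted p under 0.05), and Ms4a1 had at most 3 counts in any library. Among the treated libraries, replicate 1 had the highest and replicate 3 the lowest sum of dendritic cell, neutrophil, mast cell and T cell markers. This order was also seen for Rela, Relb, Nfkb2, Nfkbia and Nfkbib, and the reverse order for Rel, Nfkbie and Tnfaip3. The macrophage sum was instead highest in replicate 3 (9840 CPM). Single dendritic cell markers differed. Flt3, H2-Ab1, Cd74, Ccr7 and Irf8 were highest in replicate 1, and Xcr1 and Batf3 in replicate 2. Itgax, Zbtb46, Clec9a, Sirpa and Irf4 were highest in replicate 3. The part of cell composition in the values of the 10 genes was not tested.

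NF-kB genes are known to be targets of NF-kB, and PU.1 binds purine-rich DNA around the letters GAGGAA. The promoter windows of the 10 genes, from 250 bases before to 50 bases after the start site, were therefore read from RefSeq (GRCm38.p6). The table matched 7 of the genes. Relb, Nfkb1 and Nfkbiz had no entry. Both strands were searched for the kappaB consensus and for GAGGAA. They had 10 windows, 3 of them for Nfkb2 and 2 for Tnfaip3. The kappaB consensus was found in 7 of the 10 windows, from 5 genes (Rel, Nfkb2, Nfkbia, Nfkbie and Tnfaip3), beside 8.46% of all 32851 windows of this length. GAGGAA was found in 1 window, that of Rel, beside 28.3% of all windows. Below are the first windows of the called genes Rel, Nfkb2 and Nfkbib, and that of Nfkbia, which did not pass. Capitals mark the kappaB matches and, in Rel, also GAGGAA, which is the first stretch in capitals.
Rel promoter: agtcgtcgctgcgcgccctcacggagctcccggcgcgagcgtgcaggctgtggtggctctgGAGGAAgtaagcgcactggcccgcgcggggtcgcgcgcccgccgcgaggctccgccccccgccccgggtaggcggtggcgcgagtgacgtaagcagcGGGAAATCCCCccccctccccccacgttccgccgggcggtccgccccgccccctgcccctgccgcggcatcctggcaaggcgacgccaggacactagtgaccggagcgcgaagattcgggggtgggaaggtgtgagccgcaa
Nfkb2 promoter: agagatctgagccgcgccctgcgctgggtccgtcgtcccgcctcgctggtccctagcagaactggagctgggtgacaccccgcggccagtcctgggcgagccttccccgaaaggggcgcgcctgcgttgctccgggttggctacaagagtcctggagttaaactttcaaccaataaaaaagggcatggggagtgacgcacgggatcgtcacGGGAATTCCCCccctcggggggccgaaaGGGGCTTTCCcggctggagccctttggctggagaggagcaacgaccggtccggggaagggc
Nfkbib promoter: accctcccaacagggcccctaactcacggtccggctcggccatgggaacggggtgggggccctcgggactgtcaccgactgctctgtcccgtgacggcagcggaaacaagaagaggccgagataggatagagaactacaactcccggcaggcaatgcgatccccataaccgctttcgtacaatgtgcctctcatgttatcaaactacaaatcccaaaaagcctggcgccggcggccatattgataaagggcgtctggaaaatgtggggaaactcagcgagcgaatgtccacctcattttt
Nfkbia promoter: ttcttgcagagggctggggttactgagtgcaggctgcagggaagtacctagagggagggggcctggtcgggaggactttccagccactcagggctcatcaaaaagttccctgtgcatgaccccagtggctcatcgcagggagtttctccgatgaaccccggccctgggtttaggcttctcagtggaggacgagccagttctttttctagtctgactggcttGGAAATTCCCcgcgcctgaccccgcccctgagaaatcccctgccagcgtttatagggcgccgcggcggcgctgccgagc
The windows lie at chr11:23770920-23771219, minus strand (Rel), chr19:46304487-46304786, plus strand (Nfkb2), chr7:28766595-28766894, minus strand (Nfkbib) and chr12:55492598-55492897, minus strand (Nfkbia). They cover the sequence before each gene and the start of its first exon as RefSeq gives it. That of Nfkbib starts inside the gene as the count table bounds it, with the start site 868 bases downstream of the table's first base.

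In Rel, GGGAAATCCC matches the consensus read from either strand, begins 92 bases before the start site and overlaps a second match, GGAAATCCCC, by all but 1 base. Nfkb2 has GGGAATTCCC 39 bases before the start site, again with an overlapping second match, and GGGGCTTTCC 11 bases before it. The other 2 windows of Nfkb2 overlap each other and share 1 match, GGGACTTTCC, and one of them also holds GGAATGTCCC. In Nfkbia, GGAAATTCCC lies 29 bases before the start site. No match was found in the windows of Nfkbib or Rela, which says only that these letters are not in them. Matches were thus present both in genes called lower (Rel and Nfkb2) and in genes that did not pass (Nfkbia, Nfkbie and Tnfaip3). They are descriptions of sequence, and no binding was measured.

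The other genes of the pathway were taken from 6 lists written from general knowledge, 90 genes in all, of which 89 were tested. Of these, 3 were higher and 11 lower, or 15.7% called, beside 10.6% of all genes. The median log2 fold change was -0.04, with 31 genes above 0 and 58 below. With single libraries left out the counts were 1 to 7 higher and 5 to 17 lower. The fewest were called without control replicate 1 or DB2313 replicate 2, and the most without DB2313 replicate 1 (17 lower) or 3 (7 higher).

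Of the 11 IKK and related kinases, which act upstream of the subunits, 1 was lower and none higher (edgeR). This was 9.09% called, near the 10.6% of all genes, with a median log2 fold change of -0.02. At an unadjusted p under 0.05 there was also 1, beside 23.3% of all tested genes. The lower one was Map3k14, which encodes NIK, the kinase of the branch that works through p100 and RelB. It was at 240, 247 and 244 CPM in control and at 214, 212 and 200 CPM with DB2313, without overlap. The log2 fold change was -0.23 ± 0.07 (SE, adjusted p 0.0398), and the call was lost in 8 of the 16 alternatives. The IKK genes Chuk (0.07 ± 0.09), Ikbkb (-0.04 ± 0.07) and Ikbkg (0.16 ± 0.09, log2 scale ± SE) did not pass, and their adjusted p were 0.735, 0.818 and 0.290.

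Among 19 adaptors near the receptors, 2 were lower and none higher (edgeR). This was 10.5% called, again near the 10.6% over all genes. At an unadjusted p under 0.05 there were 6, beside 23.3% of all tested genes. Irak2, an interleukin-1 receptor-associated kinase, had 68.6 to 79.8 CPM in control and 49.4 to 60.9 CPM with DB2313 (log2 fold change -0.38 ± 0.09, SE, adjusted p 0.0168). Birc3, a ubiquitin ligase that keeps NIK low, had 167 to 181 and 138 to 154 CPM (-0.25 ± 0.07, adjusted p 0.0375). The call of Irak2 was lost without control replicate 1 (adjusted p 0.112) or DB2313 replicate 2, and that of Birc3 in 8 alternatives. The median of the list was -0.04. Of 13 ubiquitin-editing and A20-associated genes, 1 was lower, or 7.69% called, beside 10.6% of all tested genes. At an unadjusted p under 0.05 there were 4, beside 23.3%. The lower one was Tnip1, which binds A20. It was at 172 to 182 CPM in control and 135 to 160 CPM with DB2313 (-0.27 ± 0.08, adjusted p 0.0349, lost in 5 alternatives).

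Of the 7 genes for the degradation of IkB and the turnover of RelA, Pdlim2 was higher and none was lower. This was 14.3% called, beside 10.6% of all tested genes. At an unadjusted p under 0.05 in edgeR there were 4 of the 7, beside 23.3% of all tested genes. Pdlim2 encodes a ubiquitin ligase for nuclear RelA. It had 28.3, 35.3 and 30.2 CPM in control and 43.1, 41.2 and 40.9 CPM with DB2313. All treated libraries were above all controls. This was a log2 fold change of 0.42 ± 0.10 (SE, adjusted p 0.0134). The adjusted p was between 0.0059 and 0.0839 when single libraries were left out, and the call was lost without control replicate 1, control replicate 3 or DB2313 replicate 2. The 5 remaining IkB-related proteins held 1 called gene, Bcl3, a nuclear IkB protein that works with p50 and p52 homodimers. This was 20% called, beside 10.6% of all tested genes, and 2 had an unadjusted p under 0.05 in edgeR. Bcl3 fell from 67.1, 64.0 and 67.1 CPM in control to 42.6, 36.2 and 40.4 CPM with DB2313, a clear gap between the groups. Its log2 fold change of -0.74 ± 0.09 (SE, adjusted p 6.8e-05) was larger than that of any of the 10 genes above and passed in all 16 alternatives. The gene overlaps antisense RNAs, whose reads cannot be told apart without strand.

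The list of known NF-kB target genes held 35 genes, of which 34 were tested, 6 were lower and 2 higher. This was 23.5% called, beside 10.6% of all tested genes. At an unadjusted p under 0.05 in edgeR there were 18, beside 23.3% of all tested genes. The median log2 fold change of the list was -0.19, beside 8.2e-04 over all genes tested, with 26 genes below 0 and 8 above. The lower genes were Il12b, Il1a, Il1b, Gadd45b, Fas and Cxcl3, whereas other cytokine genes of the list, such as Tnf (adjusted p 0.190) and Il6 (adjusted p 0.810), did not pass. Il12b, the p40 chain of interleukin-12, was at 29.4, 32.9 and 31.0 CPM in control and at 17.3, 15.4 and 13.4 CPM with DB2313. Every treated library was far under every control, with a log2 fold change of -1.02 ± 0.12 (SE, adjusted p 4.9e-05) that passed in all 16 alternatives. Il1b, which encodes interleukin-1 beta, was at 29.9 to 42.7 CPM in control and 20.3 to 25.2 CPM with DB2313 (-0.68 ± 0.13, adjusted p 0.0031), and its antisense RNA Il1bos overlaps it. Il1a was low, at 6.84 to 8.84 and 3.22 to 5.65 CPM (-0.84 ± 0.22, adjusted p 0.0223), and its call was lost without control replicate 1, control replicate 3 or DB2313 replicate 2.

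Of the targets that were higher, Ccnd1, a cyclin that drives entry into the cell cycle, was at 24.0 to 27.8 CPM in control and 37.1 to 44.8 CPM with DB2313 (0.71 ± 0.10, adjusted p 4.4e-04). The 4 remaining called targets were named after their values were seen. Gadd45b, a stress response gene (-0.45 ± 0.08), the death receptor gene Fas (-0.49 ± 0.09) and the chemokine gene Cxcl3 (-0.51 ± 0.15, log2 fold change ± SE) were lower, with adjusted p of 0.00307, 0.00308 and 0.0425. The groups overlapped for Cxcl3 (16.5 to 22.1 CPM in control and 12.1 to 16.9 CPM with DB2313), and its call was lost in 5 alternatives. Ccl4, a chemokine gene, was higher (0.62 ± 0.18, adjusted p 0.0367, lost in 6 alternatives), although its control libraries (9.16 to 12.5 CPM) overlapped with DB2313 replicate 3 (12.2 CPM). Of the targets with a known part in maturation, those that did not pass include Ccr7 (-0.19 ± 0.08, adjusted p 0.161), Cd83 (-0.03 ± 0.07, adjusted p 0.841), Cd86 (0.09 ± 0.08, adjusted p 0.557) and Cd40 (-0.15 ± 0.10, adjusted p 0.416).

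**Figure D5:**
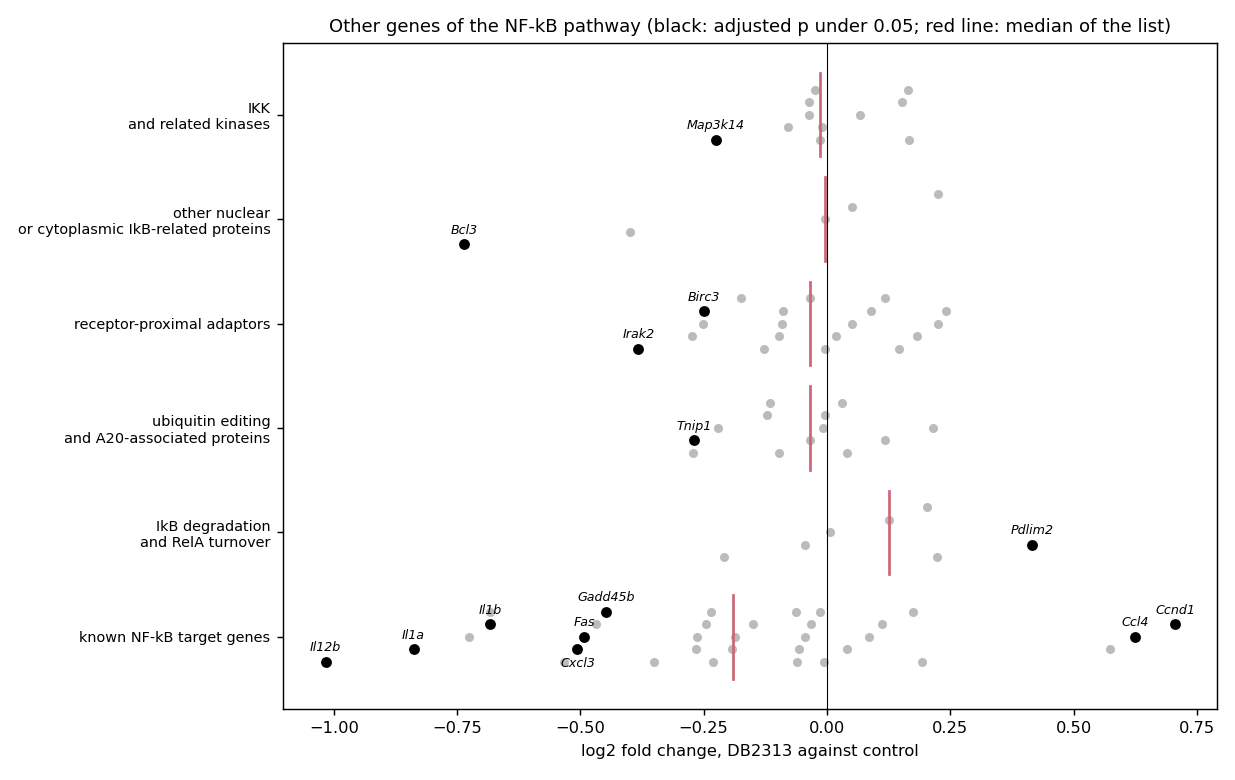
Log2 fold change of DB2313 against control for the 89 tested genes of the 6 other pathway lists, one point per gene; black points passed an adjusted p of 0.05 and are named, and the red line is the median of the list. Bcl3 (-0.74) and Il12b (-1.02) lie farthest to the left of their lists, Ccnd1 (0.71) farthest to the right, and the kinase list centres on -0.02.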

How the data were processed

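RNA-seq of cultured mouse dendritic cells was analysed in 6 libraries, 3 control and 3 DB2313. The deposited table held raw counts, which the authors had neither normalised nor pooled, with the length of each gene in bp. The submitters' processing notes named CASAVA 1.8, HISAT2 2.0.5 and featureCounts 1.5.0-p3, whereas the methods of the study named LifeScope. The build and the strandedness were not given in the sources used here. Of 54495 identifiers shared with GENCODE M21 (GRCm38), 98.33% had the same start and end (not Nfkb2), so coordinates are given as GRCm38. Groups came from the treatment in the labels. All rows named a gene.

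Counts were tested with the quasi-likelihood test of edgeR 4.0.16 (R 4.3.3) with TMM scaling and filterByExpr. The design held the group alone, and p-values were adjusted by Benjamini-Hochberg over 14174 genes. Adjusted p-values and 95% intervals of log2 fold changes come from this test. CPM per kb is CPM divided by the deposited gene length. GC content is that of the longest GENCODE M21 transcript of a gene (99.9% of tested genes). The steps were tested on simulated data. There, 36.4% of genes with a log2 change of 0.5 were recovered, and 90.5% of those with a change of 1. The changed genes were drawn at random from all tested genes, with the same spread for every gene. These shares therefore need not hold for the 10 genes. The largest change among the 10 genes was -0.38, a size that was not simulated, and a gene that did not pass may still have changed. Totals were 16146743 to 19764677 counts per library, and intervals cover the spread between libraries. The named genes were the 10 members, Spi1 and up to 4 called genes per list with the largest change and a mean log2 CPM of at least 1. Chuk, Ikbkb, Ikbkg and the target genes past the first 4 were named after their values were seen. The members and lists were chosen with earlier results of these data known. Alternatives were DESeq2 size factors, scaling to library totals, omission of the filter, a filter at a mean of 10 counts, DESeq2 1.42.0, limma-voom (limma 3.58.1), offsets for gene length and for GC content (lowess, span 0.3), the replicate number as a block, the length offset with this block, and each library left out. A search of the proteins was planned and not run. The values of 1 marker gene are not reported here.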

Additional observations from a re-analysis of the deposited data

How the results depend on the processing

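Of 160 values of the 10 genes under 16 alternatives, 143 kept their direction and their side of the threshold, 9 no longer passed, 3 newly passed and 5 turned sign. The sign turned for Nfkbie under library totals (0.013) and without control replicate 2 (0.0035), control replicate 3 (0.027) or DB2313 replicate 1 (0.011), and for Nfkbiz without control replicate 2 (-0.081). None of these passed. With single libraries left out, the log2 fold change ranged from -0.054 to 0.027 for Nfkbie and from -0.081 to 0.164 for Nfkbiz. The number of the 10 genes called lower ranged from 2, without control replicate 2 or 3, to 5, without DB2313 replicate 1. In the other pathway lists, 1 to 7 genes were higher and 5 to 17 lower when single libraries were left out, and over all genes 328 to 1097 were higher and 411 to 1311 lower. The highest counts over all genes were those without DB2313 replicate 3 and the lowest those without DB2313 replicate 2, and the cause was not tested. Under library totals, 731 genes were higher and 703 lower, against 661 and 842.

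Libraries with the same replicate number did not deviate together, with correlations of deviations of -0.0080, -0.019 and -0.15 between them, and no control library correlated best with its own number. A replicate block gave 502 higher and 629 lower genes, 3 of the 10 genes were lower (Rel, Relb and Nfkb2), and Nfkbib had a log2 fold change of -0.31 with an adjusted p of 0.0715. No batch was given in the labels.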
